A study of Canis lupus familiaris with 36 samples.

Results

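A group of 138 genes of the canine lymphoma line CLBL-1 rose during incubation with vehicle alone and were near that level, or above it, after 72 h with a pair of kinase inhibitors. The members were chosen from the measured values among 30424 genes of the count table. Read counts were scaled to library size as CPM, the reads of a gene per 1000000 reads of the library, and 10037 genes had a mean of at least 2 CPM over the libraries used. Of these, 557 had a DMSO 72 h mean at least 0.8 above the DMSO 24 h mean on the log2 scale, with 0.5 CPM added to each mean. A member also had an Ibr + AS 72 h mean no more than 0.5 (log2) below the DMSO 72 h mean, and 3 genes were left out by identifier. The remaining 416 rising genes were lower than that with Ibr + AS at 72 h and serve here as the genes to compare with.

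CLBL-1 is a line of a canine diffuse large B-cell lymphoma, and every library comes from this single line. Cells received 1 µM ibrutinib (Ibr), 5 µM AS-605240 (AS), both together (Ibr + AS), or dimethyl sulfoxide (DMSO), the solvent of both inhibitors, for 24, 48 or 72 h. Each of the 12 groups was sequenced in cells of passages p121, p126 and p128, here replicates 1, 2 and 3. Passage was a term of the fit, so p-values measure the spread left within groups of this single line after shared passage differences are removed. Replicate 3 of Ibr 72 h was left out of means and tests, which leaves 35 of 36 libraries. Between 9941919 and 14703839 reads per library lay on genes, with a median of 11888025. The public labels give DMSO 24 h replicate 3 passage p126 in one field and p128 in another, and p128 was used.

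Ibrutinib blocks Bruton's tyrosine kinase (BTK), which relays the signal of the B-cell receptor towards calcium release, NF-κB and proliferation. AS-605240 blocks phosphoinositide 3-kinase gamma, one of the lipid kinases that feed AKT and mTOR signalling downstream of surface receptors. When this signalling falls, cells are known to slow growth and to turn on lysosomal and autophagy genes. Cells left in one medium also change with time as they become dense and consume nutrients.

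The deposited table names genes by Ensembl identifier, and 7 of the 138 members (5.07%) could be paired with a symbol. These are the receptors ERBB3 and AGER, the autophagy adaptor SQSTM1, the lysosomal enzyme ARSA, the endoplasmic reticulum protein WFS1, and the enzymes HDAC10 and ATAT1. The members with a symbol are few, so no theme can be named for the group. The 2 members without a symbol that had the highest mean CPM, ENSCAFG00000004080 and ENSCAFG00000041995, are described as well. B-cell markers were present, with DLA-DRA between 2478 and 4520 CPM over the groups and TNFRSF13C, the BAFF receptor, between 76.0 and 267 CPM. The T-cell markers IL2RB and TCF7 stayed at or below 0.132 CPM in every group mean. Of 20 markers of B, T, myeloid and melanocytic cells, 9 were paired with a symbol.

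The rise in DMSO and the ratio of Ibr + AS to DMSO at 72 h chose the members and are given as a description. The log2 ratio of DMSO 72 h over DMSO 24 h had a median of 0.99 and ran from 0.80 to 2.03. Just inside this limit lay ENSCAFG00000004447 at 0.801, and just outside it ENSCAFG00000013179 at 0.799. The ratio of Ibr + AS over DMSO at 72 h had a median of -0.16 and was above 0 in 49 members and above 1 in 10. At its lower limit, ENSCAFG00000004041 at -0.497 was inside and ENSCAFG00000019295 at -0.516 outside. The CPM limit was taken over 35 libraries of all groups, so that libraries compared later had a part in it, though not in the ratios. Of the 138 members, 130 also had a mean of at least 2 CPM over the DMSO 24 h and 72 h libraries alone. At the CPM limit, ENSCAFG00000016861 at 2.065 CPM was inside and ENSCAFG00000032474 at 1.943 CPM outside. At the other end, ENSCAFG00000043492, singled out after its value was seen, was 3.19 higher on the log2 scale with Ibr + AS than with DMSO at 72 h.

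Members spanned 2.07 to 657 mean CPM, with a median of 13.2, and 77 of them had at least 10 CPM. In DMSO the 48 h mean lay between the 24 h and 72 h means in 131 of 138 members. With Ibr + AS the level was already high at 24 h. The median log2 ratio over DMSO 24 h was 1.07 with Ibr + AS at 24 h, 1.10 at 48 h and 0.89 at 72 h, against 0.36 and 0.99 in DMSO at 48 h and 72 h. The single inhibitors gave medians of 0.33, 0.34 and 0.67 for AS and 0.46, 0.50 and 0.50 for Ibr at the 3 incubation times, which at 72 h were below both DMSO and Ibr + AS. All of these ratios share the DMSO 24 h libraries, which the rule used.

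**Figure D1:**
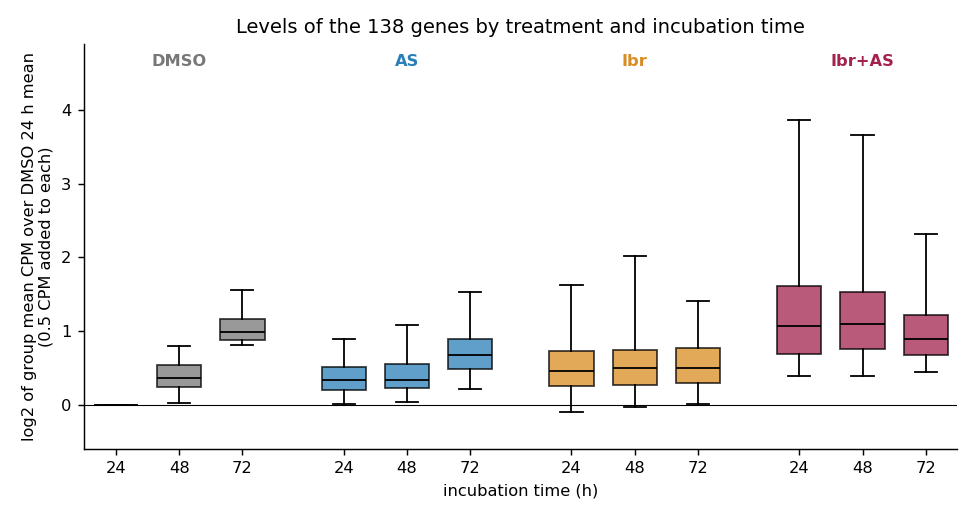
Levels of the 138 genes in the 12 groups, as log2 of the group mean CPM over the DMSO 24 h mean (0.5 CPM added to each), against incubation time in h. Boxes span the quartiles with the median as a line, and whiskers the 5th to 95th percentile of genes. The Ibr + AS boxes have medians of 1.07, 1.10 and 0.89, while DMSO climbs to 0.99 at 72 h by the way the genes were chosen.

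Which group was highest differed between members. Ibr + AS 24 h held the highest of the 12 group means in 53 members, DMSO 72 h in 45, Ibr + AS 48 h in 21 and AS 72 h in 9. DMSO 24 h was the lowest group in 107. The rule used DMSO 24 h, DMSO 72 h and Ibr + AS 72 h, so these ranks follow in part from the choice of members and are a description. Among the Ibr + AS groups alone, 72 members were highest at 24 h, 44 at 48 h and 22 at 72 h. The passages gave like values. Medians with Ibr + AS over DMSO 24 h of the same passage were 1.15, 0.98 and 1.13 at 24 h and 0.98, 1.18 and 1.10 at 48 h. These too share the DMSO 24 h libraries with the rule. RNA of a bulk culture cannot tell a change in every cell from a change in the share of cells of one state, nor show a change of the total RNA per cell.

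The first question was whether the members also rose with time under a single inhibitor, in libraries that entered the CPM limit but not the ratios of the rule. Some did with AS. Of the 138 members, 10 were DEGs (adjusted p of at most 0.05 and absolute log2 FC above 1) that were higher at AS 72 h than at AS 24 h, and 0 were lower, against 0.948% and 0.236% of all 18670 tested genes. The median log2 FC of the members was 0.34, of the 416 other rising genes 0.53, with 79 of the latter called higher, and of all genes about 0. Without a fold limit, 45 members were higher and 0 lower at an adjusted p of at most 0.05, against 3.93% and 2.01% of all genes. Every AS 72 h library was above every AS 24 h library in 75 members, as in 11.7% of all genes. A tested gene needed only 2 reads over the libraries, while 10037 genes reached the mean of 2 CPM asked of members. The shares of all genes, here and below, are therefore not those of genes at like levels. The count of 10 depended on the passages, with 16 without passage p121 and 7 without passage p126.

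With Ibr few members were called over time. From 24 h to 72 h, 4 members were called higher and 4 lower, against 0.589% and 0.370% of all genes, and the median log2 FC was 0.05. Without passage p126 the calls were 3 higher and 1 lower, and without p121 they were 5 and 7. Either way the Ibr 72 h group is then a single library that is assumed to vary like the other groups. At any fold, 9 were higher and 5 lower, against 2.35% and 2.12%. The other rising genes had 61 higher and 3 lower calls, with a median of 0.31. The difference between the Ibr and AS time courses was tested in the same fit. It gave 0 members in either direction by edgeR, against 0.00536% and 0.0107% of all genes. An unadjusted p under 0.05 (edgeR) was seen in 30 members, against 1050 of all 18670 tested genes. The median log2 difference of the members was -0.35. DESeq2 called 1 member lower. A fit on the 4 groups of this comparison alone called 6 members, all lower with Ibr.

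The Ibr + AS levels went the other way over time. From 24 h to 72 h the group means of 40 members rose and the median log2 ratio was -0.18, with 21 members down by at least 0.8. The 72 h libraries were used by the rule, so this is a description. Between 24 h and 48 h, whose libraries entered only the CPM limit, 0 members were called in either direction by edgeR and 0 by DESeq2, against 0.0214% higher and 0.118% lower among all genes. In this comparison 29 members had an unadjusted p under 0.05 (edgeR), against 1555 of all 18670 tested genes. The median log2 FC of the members was -0.04. Leaving out passage p126 gave 4 members called lower.

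The second question was whether the members were higher with Ibr + AS than in control cells at 48 h, a time that entered only the CPM limit of the rule. They were. The rule kept the Ibr + AS 72 h mean of every member above its DMSO 24 h mean, by at least 0.31 (log2). The choice thus favoured this direction at 48 h for genes with a lasting Ibr + AS level. Compared with DMSO 48 h, 55 of 138 members (39.9%) were called higher with Ibr + AS and 0 lower, against 4.86% and 2.82% of all tested genes. The median log2 FC was 0.89, and 133 members had a value above 0. At any fold, 111 were higher and 0 lower, against 15.4% and 15.3% of all genes. In 105 members every Ibr + AS 48 h library lay above every DMSO 48 h library, as in 15.5% of all genes. Members under 10 CPM and those above had like medians, 0.89 (61 genes) and 0.88 (77 genes). Of the 130 members that passed the CPM limit in DMSO 24 h and 72 h alone, 47 were called higher, with a median of 0.86.

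Over all tested genes the median log2 FC lay between -0.03 and 0.02 in every comparison described here. The other rising genes had 13 higher calls and 24.3% called lower in the same comparison, with a median of -0.31. They were parted from the members by the Ibr + AS value at 72 h, so a difference in this direction was built into the choice. LYZ, the lysozyme gene and a marker of myeloid cells, was also higher with Ibr + AS at 48 h. The summed level of the 2 paired markers of 4 on the myeloid list was 78.4 CPM in DMSO 48 h and 173 CPM in Ibr + AS 48 h. It was 147 CPM in Ibr 48 h and 91.4 CPM in AS 48 h, so a higher level was also seen with Ibr alone. The highest value was 255 CPM in Ibr + AS 24 h. TREM2, the other of these markers, was at most at 0.0521 CPM in any group mean. The part of LYZ-bearing cells in the result was not tested.

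Single inhibitors gave fewer DEGs among the members at 48 h. With AS, 1 member was called higher and 0 lower than in DMSO, against 0.102% and 0.509% of all genes, and the median log2 FC was 0.02. At any fold 3 were higher and 4 lower, against 1.56% and 2.1%. The number with AS was 5 without passage p128 and 4 in a fit on the 2 groups alone, and without passage p126 it became 2, both lower. In 21 members every AS library was above every DMSO library, as in 9.52% of all genes. With Ibr, 13 were called higher and 0 lower, against 0.889% and 1.11%, with a median of 0.21. At any fold 36 were higher with Ibr and 8 lower, against 5.65% and 4.94%. Of the 130 members that passed the CPM limit in DMSO 24 h and 72 h alone, 8 were called higher with Ibr and 0 with AS. In 35 members the Ibr libraries all lay above DMSO, as in 8.93% of all genes. The other rising genes were lower under both inhibitors, with 50 lower calls and a median of -0.34 for AS, and 78 and -0.46 for Ibr. These comparisons share the DMSO 48 h libraries.

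**Figure D2:**
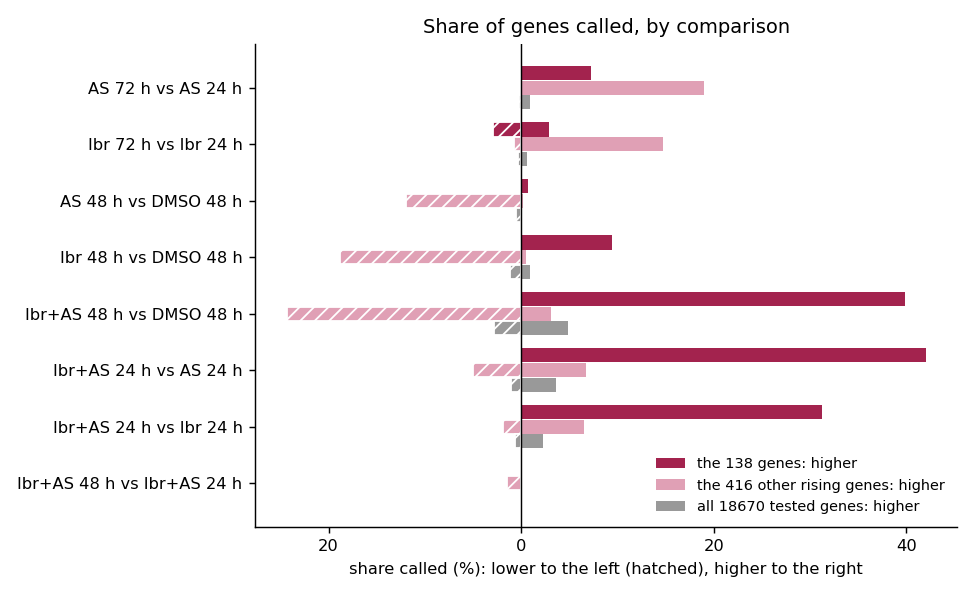
Share of genes in percent called higher (to the right) or lower (hatched, to the left) in 8 comparisons, for the 138 genes, the 416 other rising genes and all 18670 tested genes. The 138 genes reach 39.9% in Ibr + AS 48 h against DMSO 48 h, 42.0% and 31.2% in Ibr + AS 24 h against AS and Ibr, and 9.42% or less elsewhere.

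The third question was whether the combination exceeded each inhibitor alone. Here too the choice of members favoured genes with a lasting Ibr + AS level. At 24 h, 58 members were called higher with Ibr + AS than with AS, and 43 higher than with Ibr, with 0 lower in both. All genes gave 3.66% higher and 1.10% lower against AS, and 2.23% and 0.648% against Ibr. The medians of the members were 0.87 and 0.73. Of the 130 members that passed the CPM limit in DMSO 24 h and 72 h alone, 51 were called higher than with AS and 37 than with Ibr. Every Ibr + AS 24 h library lay above every AS library in 104 members and above every Ibr library in 104, as in 12.1% and 11.3% of all genes. The other rising genes had 28 higher and 21 lower calls against AS (median 0.14), and 27 and 8 against Ibr (median 0.17). Of the 58 members called against AS at 24 h, 38 were among the 55 called against DMSO at 48 h. That is 65.5% of the former and 69.1% of the latter, while 39.9% of all 138 members were called at 48 h. These comparisons share no library, but both set Ibr + AS against another treatment. The overlap among all tested genes was not counted, so these shares have no background.

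The same held at 48 h, in comparisons added after the counts had been seen. Against AS 48 h, 52 members were called higher and 0 lower, with 3.75% and 1.61% among all genes and a median of 0.89. Against Ibr 48 h, 32 were higher and 0 lower, with 2.08% and 0.696% and a median of 0.69. A test of the departure of the combination from the sum of the effects of Ibr and AS on the log2 scale was also added then. The departure was called in 30 members, all higher than the sum, and 0 lower. Among all genes 1.53% were above and 0.745% below the sum. The median departure of the members was 0.66, and that of the other rising genes 0.48 with 64 above and 1 below. Of the 130 members that passed the CPM limit in DMSO 24 h and 72 h alone, 46 were called higher against AS 48 h and 27 against Ibr 48 h. In the test of the departure, 29 of these 130 were called above the sum.

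SQSTM1 encodes sequestosome, which binds ubiquitin-tagged cargo and hands it to autophagosomes, and is itself degraded with the cargo. In DMSO its level was 77.7, 78.3 and 71.3 CPM at 24 h, 117, 98.6 and 109 CPM at 48 h, and 147, 148 and 160 CPM at 72 h. With Ibr + AS it was 172, 150 and 150 CPM at 24 h, 209, 216 and 209 CPM at 48 h, and 167, 183 and 238 CPM at 72 h. Thus the combination had at 24 h about the level that DMSO reached at 72 h, and at 48 h its libraries lay far above those of DMSO. The log2 FC at 48 h was 1.10 ± 0.10 (SE, n = 3 against 3, adjusted p = 5.33e-17 by edgeR).

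SQSTM1 was lower with Ibr alone than with DMSO at 48 h. The Ibr libraries held 88.6, 67.3 and 78.0 CPM, all below the DMSO range, with a log2 FC of -0.41 ± 0.10 (adjusted p = 0.00165 by edgeR). The Ibr means were 76.7, 78.0 and 88.1 CPM at 24, 48 and 72 h, against 75.8 CPM in DMSO 24 h, so the level did not fall with time. With AS the 48 h libraries held 115, 95.7 and 105 CPM and overlapped with DMSO (log2 FC -0.01 ± 0.10, adjusted p = 1). The combination exceeded Ibr by 1.51 ± 0.10 and AS by 1.11 ± 0.10 at 48 h (adjusted p = 4.62e-23 and 7.98e-17, edgeR), and the sum of the single effects by 1.53 ± 0.14 (adjusted p = 1.46e-14, edgeR). From 24 h to 72 h SQSTM1 rose by 0.35 ± 0.10 with AS (adjusted p = 0.0128, edgeR), under the fold limit of a DEG. Without passage p128 the adjusted p was 0.353 (edgeR). With Ibr the change was 0.18 ± 0.11 (adjusted p = 0.504, edgeR).

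WFS1 encodes wolframin, a membrane protein of the endoplasmic reticulum that takes part in calcium balance and the response to unfolded proteins. It had 92.7, 86.3 and 83.6 CPM in DMSO at 24 h and 165, 131 and 163 CPM at 72 h. At 48 h DMSO gave 141, 105 and 112 CPM, AS 112, 98.2 and 100.3 CPM, and Ibr 160, 122 and 124 CPM. With Ibr + AS the 48 h libraries held 226, 211 and 204 CPM, above every library of the other treatments at that time. The log2 FC to DMSO was 0.98 ± 0.09 (adjusted p = 3.76e-16, edgeR), just under the fold limit of a DEG.

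In contrast to most members, WFS1 rose with time under both single inhibitors. The log2 FC of 72 h over 24 h was 0.65 ± 0.10 with AS (adjusted p = 9.88e-08) and 0.48 ± 0.11 with Ibr (adjusted p = 0.00111, both edgeR), the latter lost without passage p126 at an adjusted p of 0.134. At 24 h the libraries held 218, 160 and 193 CPM with Ibr + AS against 113, 74.1 and 80.8 CPM with AS. This gave a log2 FC of 1.20 ± 0.10 (adjusted p = 3.12e-20, edgeR), and that over Ibr at 24 h was 0.87 ± 0.09 (adjusted p = 9.37e-13, edgeR).

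ARSA encodes arylsulfatase A, which removes sulfate from sulfatides in the lysosome. DMSO libraries held 20.3, 22.3 and 24.5 CPM at 24 h, 26.6, 26.1 and 24.0 CPM at 48 h, and 42.4, 42.5 and 47.4 CPM at 72 h. With Ibr + AS they held 44.8, 40.3 and 43.7 CPM at 24 h and 42.1, 46.8 and 48.1 CPM at 48 h. The combination thus had from 24 h on about the level that DMSO had at 72 h, and the 48 h groups did not overlap. The log2 FC at 48 h was 0.96 ± 0.11 (adjusted p = 6.35e-13, edgeR). Single inhibitors gave 0.03 ± 0.11 for AS and 0.18 ± 0.11 for Ibr at 48 h (adjusted p = 1 and 0.38, edgeR).

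HDAC10 is a cytoplasmic deacetylase of the class IIb group that acts on polyamines, and ATAT1 acetylates alpha-tubulin in microtubules. HDAC10 had 37.7, 32.9 and 35.1 CPM in DMSO 48 h and 57.6, 58.6 and 62.1 CPM in Ibr + AS 48 h and the groups did not overlap (log2 FC 0.88 ± 0.10, adjusted p = 7.03e-13, edgeR). Its highest level with the combination was at 24 h, with 70.4, 57.4 and 68.0 CPM. ATAT1 had 8.69, 12.6 and 12.4 CPM in DMSO 48 h and 16.5, 21.3 and 22 CPM in Ibr + AS 48 h, again without overlap (log2 FC 0.96 ± 0.14, adjusted p = 2.54e-08, edgeR). At 24 h with Ibr + AS, ATAT1 was at 10.7 CPM in passage p121 and at 20.2 and 19.1 CPM in the other passages, and the first of these lay below every library of the single inhibitors at that time. Against Ibr at 24 h the log2 FC of ATAT1 was 0.38 ± 0.14 (adjusted p = 0.0474, edgeR), under the fold limit of a DEG. The adjusted p limit was missed with DESeq2 at an adjusted p of 0.052 and without the replicate block at 0.16.

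The receptors did not reach the adjusted p limit against DMSO at 48 h. ARSA, HDAC10, ATAT1 and WFS1 reached this limit, but with a log2 FC under the fold limit of a DEG. ERBB3 encodes a receptor of the epidermal growth factor receptor family that couples to PI3K, and AGER the receptor for advanced glycation end products. ERBB3 held 8.94, 8.82 and 8.59 CPM in DMSO 48 h and 10.7, 8.23 and 11 CPM in Ibr + AS 48 h, groups that overlapped (log2 FC 0.31 ± 0.15, adjusted p = 0.124, edgeR). AGER held 4.05, 7.82 and 6.28 CPM and 5.45, 6.33 and 7.06 CPM, which overlapped too (log2 FC 0.19 ± 0.19, adjusted p = 0.542, edgeR). In DMSO 72 h, used by the rule, ERBB3 was at 14.8, 11.1 and 17 CPM and AGER at 8.71, 7.23 and 8.92 CPM. AGER overlaps RNF5 in the RefSeq annotation of another dog assembly (UU_Cfam_GSD_1.0), and which strand the authors counted is not stated, so its reads could be shared.

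**Figure D3:**
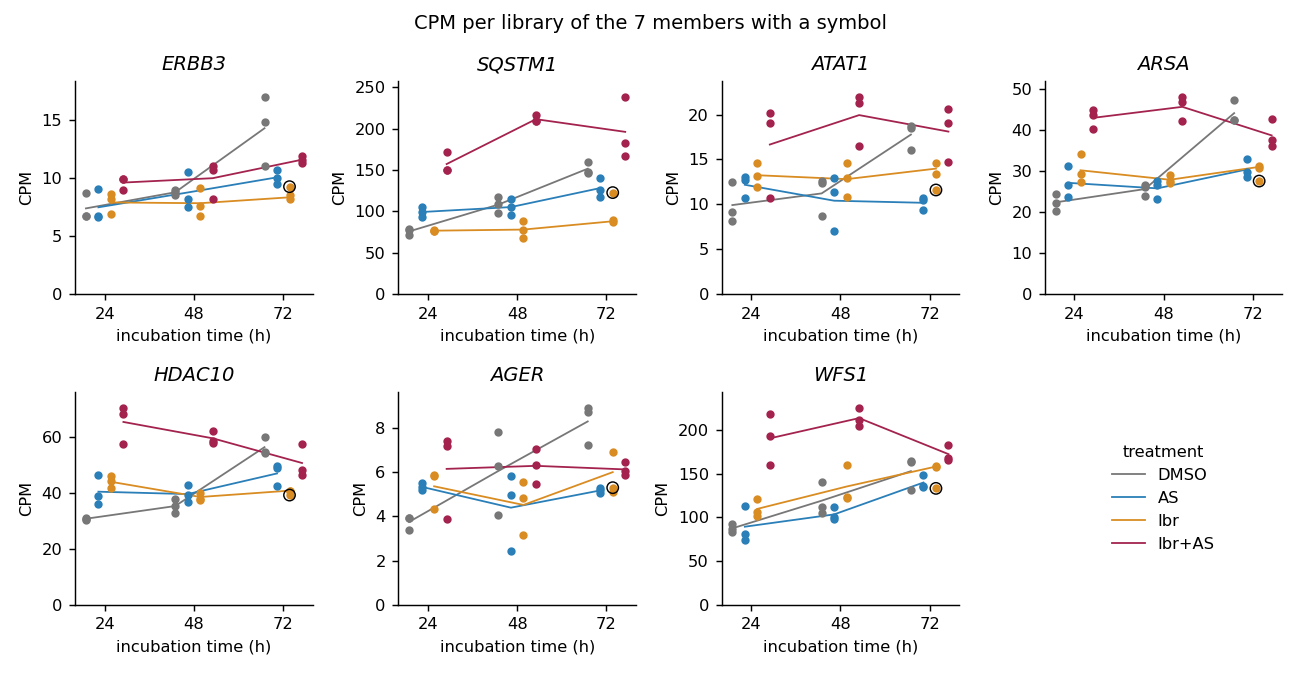
CPM per library (points) of the 7 members with a symbol against incubation time in h, with lines through group means for DMSO, AS, Ibr and Ibr + AS. The circled Ibr 72 h replicate 3 is not in the means. In SQSTM1, ARSA, HDAC10, ATAT1 and WFS1 the Ibr + AS libraries lie above those of DMSO at 48 h, in ERBB3 and AGER they overlap.

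ENSCAFG00000004080 was the most abundant member. It had 545, 506 and 498 CPM in DMSO 48 h, 514, 529 and 501 CPM with AS, 597, 592 and 590.5 CPM with Ibr, and 781, 1021 and 849 CPM with Ibr + AS. The combination stood clear of the rest, AS overlapped with DMSO, and Ibr lay slightly above it. The log2 FC to DMSO was 0.90 ± 0.09 for Ibr + AS (adjusted p = 2.07e-14), and 0.26 ± 0.09 for Ibr (adjusted p = 0.0595, both edgeR). The departure from the sum of the single effects was 0.62 ± 0.13 (adjusted p = 0.000303, edgeR).

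ENSCAFG00000041995 had the widest spread within a group of all members at 48 h with AS, Ibr and Ibr + AS. At 48 h it had 1034, 89.3 and 6795 CPM with Ibr, 2669, 594 and 577 CPM with Ibr + AS, 735, 45.9 and 56.5 CPM with AS, and 194, 61.3 and 55.8 CPM in DMSO. At 48 h it was higher in passage p121 than in p126 under all 4 treatments, and in passage p128 it took 0.680% of all reads of the Ibr 48 h library. With Ibr + AS at 24 h the passages were close, at 445, 543 and 569 CPM, above every library of the other treatments at that time. The log2 FC for Ibr at 48 h was 4.76 ± 1.13 (adjusted p = 0.00691, edgeR), and it was 1.98 without passage p128. A fit on the 2 groups alone gave 3.12 with an adjusted p of 0.533 (edgeR). For Ibr + AS at 48 h the log2 FC was 3.69 ± 1.05 (adjusted p = 0.0086, edgeR).

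**Figure D4:**
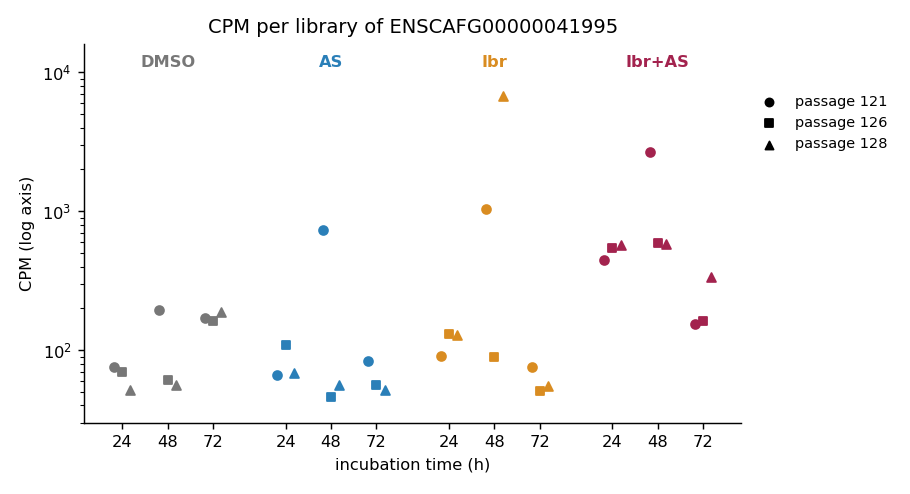
CPM (log axis) of ENSCAFG00000041995 in every library against incubation time in h, by treatment, with a symbol for each passage. At 48 h passage p121 is above p126 under every treatment, and the Ibr 48 h library of passage p128 is highest at 6795 CPM.

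Genes of related functions were counted in lists that hold only genes with a symbol. The lysosome and autophagy list has 21 genes, of which SQSTM1 and ARSA are members. With Ibr + AS at 48 h, 6 of the 21 were higher and 3 lower than in DMSO at an adjusted p of at most 0.05, against 15.4% and 15.3% of all genes. The median log2 FC was 0.05. The 6 include SQSTM1 and ARSA, which the rule had chosen. CD63, a tetraspanin of lysosomal membranes, went from a mean of 194 to 314 CPM (log2 FC 0.82 ± 0.10), and TFEB, the transcription factor that drives lysosomal genes, from 157 to 199 CPM (0.47 ± 0.09). STX7, a syntaxin of late endosomes, went from 420 to 262 CPM (-0.55 ± 0.09). From 24 h to 72 h, 3 of the 21 were higher with AS and 0 lower, against 3.93% and 2.01% of all genes. With Ibr 1 was higher and 0 lower, against 2.35% and 2.12%.

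The other lists hold no member. Their counts at 48 h use an adjusted p of at most 0.05 at any fold, a limit at which 15.4% of all genes were higher and 15.3% lower. Of 10 genes of the ATF4 and amino acid response, 1 was higher and 8 lower with Ibr + AS at 48 h (median -0.45), among them SHMT2, the mitochondrial serine hydroxymethyltransferase, at 355 and 214 CPM (log2 FC -0.61 ± 0.10). Of 17 cell cycle genes, 1 was higher and 15 lower (median -0.55). The 1 that was higher was CCND3, cyclin D3, at 401 and 576 CPM (0.65 ± 0.09), and MCM5, a subunit of the replicative helicase, went from 456 to 283 CPM (-0.56 ± 0.09). Of 7 antigen presentation genes, 5 were higher and 0 lower (median 0.43), among them TAP1, a subunit of the peptide transporter, at 519 and 684 CPM (0.53 ± 0.09). With the fold limit of a DEG, 0 genes of the ATF4 and antigen presentation lists were called, and 1 cell cycle gene was called lower. All genes gave 4.86% higher and 2.82% lower at that limit. From 24 h to 72 h, at any fold, 0 genes of these 3 lists passed the adjusted p limit with AS, against 3.93% higher and 2.01% lower of all genes. With Ibr 3 of the ATF4 list were higher and 3 of the antigen presentation list lower, against 2.35% and 2.12% of all genes.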

How the data were processed

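The authors mapped single-end reads of poly-A RNA to CanFam3.1 with STAR 2.7.5a and deposited raw counts per Ensembl gene, without normalization. Which strand column was kept is not stated in the sources used here. Genes with at least 2 reads over 35 libraries (18670) were fitted in R 4.3.3 with edgeR 4.0.16 (TMM factors, robust quasi-likelihood) with group and passage as terms, and p-values were adjusted by Benjamini-Hochberg over all genes. All 138 members were tested. DESeq2 1.42.0 and the other alternatives are given at the end. In deviations from group means, the median correlation was 0.108 between same-passage libraries (187 pairs, each of 2 groups) and -0.0433 between passages (374 pairs). The passage label is from the submitters, and passage was kept as a block. Leaving out Ibr 72 h replicate 3 and the passage term follow the study's methods. Symbols came from the given parts of the study's supplementary tables (1068 identifiers). The RefSeq table held 0 of the identifiers, so no promoter or protein sequence was matched and the planned promoter motifs were not run. Every member with a symbol was named, with the 2 unpaired members of highest mean CPM. Members and lists were chosen with earlier results of these data known.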

Additional observations from a re-analysis of the deposited data

Results flagged for a closer look

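In every passage, SQSTM1 was slightly lower with AS than with DMSO at 48 h (log2 ratios from -0.05 to -0.03, 0.5 CPM added) and higher with Ibr + AS (0.83 to 1.13), a difference of the mean ratios of 1.01. With Ibr it was lower in every passage (-0.55 to -0.40), which differed from Ibr + AS by 1.44. Ibr + AS exceeded AS by a log2 FC of 1.11 ± 0.10 and Ibr by 1.51 ± 0.10 when tested directly (adjusted p = 7.98e-17 and 4.62e-23, edgeR). WFS1 was lower with AS in every passage (-0.33 to -0.09) and higher with Ibr (0.15 to 0.22), a difference of 0.38 that was not tested. For WFS1, Ibr + AS (0.68 to 1.01) differed from AS by 1.04, and the direct test gave 1.15 ± 0.09 (adjusted p = 2.72e-19, edgeR).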

How the results depend on the processing

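The number of members ran from 97 to 164 over the alternatives of the rule, the latter with TMM effective library sizes, and from 138 to 144 with a replicate left out, of which 111 to 115 were members. Of 142 alternative counts, 120 lay within 1.5 times the value given. For Ibr + AS 48 h against DMSO 48 h the count was 50 to 57 over the fits of all passages and 47 to 63 with a replicate left out. With a replicate left out it was 7 to 16 for the AS time course, 4 to 12 for Ibr, 1 to 5 for the difference between them, 2 to 5 for AS 48 h against DMSO 48 h and 1 to 4 for Ibr + AS 48 h against 24 h. The difference of the time courses gave 1 member with DESeq2, 1 without the replicate block and 6 on its own groups. AS at 48 h gave 2 with DESeq2, 2 with filterByExpr and 4 on its own groups. Ibr + AS 48 h against 24 h gave 1 with the sequencing run (inferred from header numbers, added after the data were seen) as a term, 1 without Ibr + AS 24 h replicate 1 and 1 on its own groups. With the CPM limit of the rule taken over DMSO 24 h and 72 h only (added after the data were seen), AS at 48 h gave 0 and Ibr at 48 h 8. Without the replicate block the other counts moved by at most 2. Of 424 alternative fold changes of named members, 26 lost the adjusted p limit and 0 reversed. The cause of these shifts was not tested. Passage p121 was wholly in the first inferred run and passage p128 in the second, so run and passage cannot be told apart there. Passage p126 was split, with its 24 h libraries and DMSO and Ibr at 48 h in the first run and the others in the second. In p126, Ibr + AS 48 h against DMSO 48 h, Ibr 48 h or Ibr + AS 24 h thus also crosses runs. So do AS 48 h against DMSO 48 h and the courses from 24 h to 72 h. The departure from the sum of the single effects at 48 h draws on p126 libraries of both runs. With run as a term, Ibr + AS 48 h against DMSO 48 h gave 50 members, against 55 without it. In Ibr + AS 48 h against DMSO 48 h, 25 of the 61 members under 10 mean CPM and 30 of the other 77 were called higher.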

Other observations

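In the Ibr 72 h library left out of the fit (replicate 3), the median log2 ratio of the members over the DMSO 24 h mean was 0.53, and it was 0.50 for the mean of the 2 Ibr 72 h libraries kept. SQSTM1 was at 123 CPM in that library and at 89.0 and 87.1 CPM in the others.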
